A study of Bos taurus with 8 samples.

Results

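MDM2 and 8 other genes grouped as targets of the transcription factor p53 were compared between atretic and plateau follicles of Holstein cattle. The RNA came from granulosa cells, which form the inner layer of the follicle and make oestradiol. The 9 genes were MDM2, CDKN1A, CCNG1, SESN1, SESN2, PERP, GADD45A, GADD45B and ZMAT3. They were found by the gene symbol of the array's probes and held 15 of the 43794 gene probes and 9 of the 15216 symbols. All 15 probes passed the filter on dim probes, a mean log2 intensity of 7 set without regard to the negative controls, and 12943 genes in all passed it.

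Each atretic follicle, classed as regressing, was set against a plateau follicle, classed as one whose growth had slowed. The cells came from slaughterhouse ovaries of cows whose cycle stage was unknown, and had been scraped from the wall of single follicles. The study describes no treatment of the animals. The study had assigned the phases by the DNA content of the cells in flow cytometry, in which cells with less than their full DNA content, a sign of death, count toward atresia. Cells in G1, S phase or G2 count away from it. Each of 8 two-colour arrays carried amplified RNA of 1 atretic and 1 plateau follicle. The atretic side was labelled with Cy5 on the 4 arrays of slide 205 and with Cy3 on the 4 of slide 206, a dye swap of the same 4 pairs of follicles. Nothing in the labels ties the follicles to separate cows, and the p-values measure only the spread between these samples.

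p53 is kept low in healthy cells by MDM2, a ubiquitin ligase that marks it for destruction and is itself a target of p53. When DNA damage or other stress stabilises p53, it switches on genes that stop the cell cycle (CDKN1A), slow growth signals (SESN1, SESN2), adjust the response itself (MDM2, CCNG1, ZMAT3) or act in cell death and adhesion (PERP). The GADD45 genes are stress sensors that also answer to signals other than p53. In the follicle wall, atresia proceeds through death of the granulosa cells, in which p53 and its targets have been studied as candidate regulators.

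Values below are log2 ratios of atretic over plateau follicles, so that positive values are higher in atretic follicles, and are given per pair or as the mean of 4 pairs with the SD. Levels are log2 intensities of a probe after normalization and are compared only with the same probe. For genes with several probes, the brightest one stands for the gene. The words rose and fell are kept for genes whose brightest probe passed the threshold named in the study's methods, a fold of 1.5 either way at an unadjusted p of 0.05, a rule with no control of false discoveries. No probe passed an adjusted p of 0.05 in limma over all 33523 probes tested (0 probes, against 2524, or 7.53%, at an unadjusted p of 0.05), and the lowest adjusted p of all probes was 0.166.

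As to the libraries, median spot intensities lay between 162 and 283 in Cy5 and between 205 and 374 in Cy3, and the number of arrays limits the precision. The granulosa markers fixed for the check were all above the filter (10 of 10), with the mean of the list at 11.12 to 12.30 in the atretic and 9.28 to 12.62 in the plateau follicles. Markers of other cells were also above it, which were all 4 of theca, all 9 of fibroblasts and stroma, 7 of 8 of macrophages, 5 of 6 of endothelium and 3 of 4 of red blood cells. The filter, a mean log2 intensity of 7, lay below the negative controls' mean plus 2 SD on every array (7.11 to 7.26). Passing it therefore does not show that a gene was expressed. The mean of the stromal list was 8.32 to 9.27 in the atretic and 8.12 to 12.24 in the plateau follicles, that of the theca list 8.22 to 11.28 in the atretic and 8.47 to 10.68 in the plateau follicles, and that of the macrophage list 7.28 to 8.25 in the atretic and 6.99 to 9.50 in the plateau follicles. The endothelial and red cell lists lay between 7.14 and 7.63 in every follicle. The pairs differed in these lists. The granulosa list had mean ratios of -0.13, 0.87, 2.41 and -0.43 in pairs 1 to 4, the theca list 2.28, -0.25, -1.19 and -0.91, the stromal list 1.15, -0.80, -3.74 and 0.02, and the macrophage list 0.50, -1.38, -1.25 and -0.10. Pair 3 thus combined the highest ratio of granulosa markers with the lowest of stromal ones, and pair 1 had the genes of the theca list on its atretic side. That list cannot be read as theca cells alone, since it includes STAR, which the study also measured in granulosa cells. STAR read 3.12, -2.04, -5.22 and -1.66 in pairs 1 to 4. The list's genes disagreed in pairs 2 and 3, where LHCGR and INSL3 were positive. LHCGR read 3.80, 0.65, 1.09 and -0.93, and INSL3 0.43, 0.42, 0.22 and -0.17. CYP17A1, the androgen-making enzyme of theca cells, had ratios of 1.77, -0.05, -0.86 and -0.89. CYP19A1, the aromatase of granulosa cells, had 0.95, 1.78, 4.60 and -0.67. FOXL2, a transcription factor of granulosa cells, had 0.84, 0.27, 0.38 and -0.86. No marker gene passed the threshold over the 4 pairs by its brightest probe. CYP19A1, with a mean of 1.67, passed without pair 4 (2.44) and in fits of the 8 single arrays, and ranged from 0.69 to 2.44 with a pair left out. The probes of NR5A2, a granulosa nuclear receptor, disagreed, with means of 0.72, -1.27 and 0.39 from the brightest to the dimmest. Only the one at -1.27, itself bright (12.82), passed, as lower. Those of LAPTM5, a lysosomal protein of myeloid cells, read -0.72, -1.39 and 0.05 in the same order, and only the one at -1.39 passed. In bulk RNA, fewer cells of a type and less RNA per cell cannot be told apart.

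Of the 9 genes, 4 passed the threshold, CCNG1 and SESN1 as higher and CDKN1A and PERP as lower in atretic follicles, and 5 did not. Among all genes tested 5.75% passed, 2.84% as higher and 2.91% as lower. By probes it was 4 of 15, where 4.16% of all probes passed. The 9 were chosen with earlier results of these data known, and their count was not tested against that share. Their median ratio was 0.14, against 0.0017 for all genes. The calls thus fell on both sides of 0. The plot of the ratios by pair shows the range, in which 4 genes (MDM2, CCNG1, CDKN1A and PERP) kept 1 sign on all 8 arrays, as 6.13% of all genes did.

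**Figure D1:**
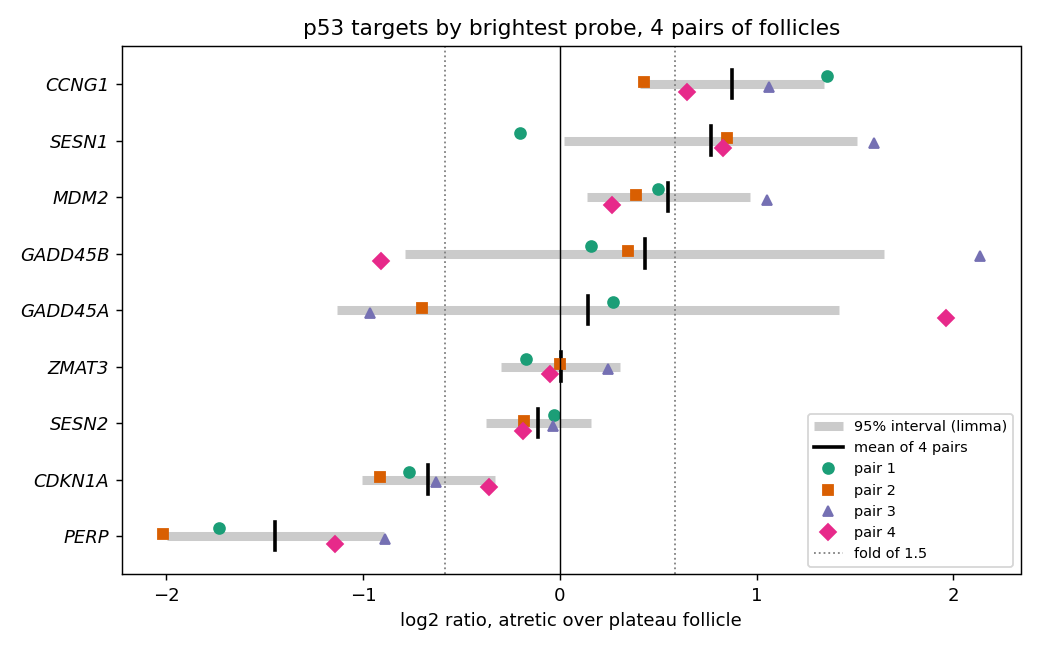
Log2 ratio of atretic over plateau follicles (horizontal axis) for the 9 genes by their brightest probe, with each of 4 pairs as a symbol, the mean as a black bar, the 95% interval from limma as a grey band and a fold of 1.5 as dotted lines. CCNG1 lies to the right of 0 and CDKN1A and PERP to the left in every pair, SESN1 has pair 1 at -0.20, and the GADD45A and GADD45B symbols spread on both sides.

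MDM2, the ligase that holds p53 in check, was higher in the atretic follicle of every pair but ended just under the fold that the threshold asks for. Its single probe had levels of 8.09, 8.02, 8.53 and 8.10 in the atretic follicles, against 7.59, 7.63, 7.47 and 7.83 in the plateau follicles. The lowest atretic level lay above the highest plateau level, and MDM2 was the only one of the 9 genes without overlap, as were 2.77% of all genes. The ratios were 0.50, 0.39, 1.05 and 0.26, with a mean of 0.55 ± 0.35 (SD, n = 4) and a 95% interval of 0.14 to 0.97. The mean corresponds to a fold of 1.47, where the bound of 1.5 is 0.58 on the log2 scale, and the unadjusted p passed while the adjusted p was 0.536 in limma. The call turned on which pairs were used. MDM2 passed the threshold without pair 2 (0.61) and without pair 4 (0.65), missed both the fold and the p without pair 1 (0.57), and missed the fold without pair 3 (0.38). The largest ratio was that of pair 3, the pair with granulosa markers highest and stromal markers lowest in its atretic follicle, and the part of this in the result was not tested. By slide the mean was 0.65 on slide 205 and 0.45 on slide 206. The MDM2 probe was dim, with a mean log2 intensity of 7.91, where the negative controls' mean plus 2 SD was 7.11 to 7.26. It was above them on all 8 atretic and all 8 plateau channels. The size of the ratio varied with the background correction, at 0.47 with plain subtraction and 0.41 with none.

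CDKN1A, which encodes the cyclin-dependent kinase inhibitor p21 and is the main effector of cell cycle arrest by p53, lay on the other side of 0 from MDM2 and fell in atretic follicles. Its probe had levels of 7.65, 8.51, 7.65 and 7.80 in the atretic follicles, against 8.42, 9.43, 8.28 and 8.16 in the plateau follicles. Each atretic follicle was below its own partner, but the groups overlapped because both follicles of pair 2 were the brightest of their group. The ratios were -0.77, -0.91, -0.63 and -0.36 with a mean of -0.67 ± 0.24 (SD, n = 4), a 95% interval of -1.01 to -0.33 and a 1.59-fold lower level in atretic follicles. The sign was negative on all 8 arrays, and limma gave an adjusted p of 0.288. CDKN1A passed the threshold with each pair left out (-0.77 to -0.59). It was under the fold of 1.5 with no background correction (-0.54) and on slide 206 alone (-0.56).

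CCNG1, cyclin G1, which binds a protein phosphatase and MDM2 and feeds back on p53, had the largest rise of the 9 genes. Its bright probe had levels of 12.37, 12.51, 12.62 and 11.79 in the atretic follicles, against 11.02, 12.09, 11.56 and 11.14 in the plateau follicles. Only the atretic follicle of pair 4 fell within the plateau range. The ratios were 1.36, 0.43, 1.06 and 0.65, with a mean of 0.87 ± 0.42 (SD, n = 4), a 95% interval of 0.41 to 1.34 and a fold of 1.83. The sign was positive on all 8 arrays, and limma gave an adjusted p of 0.315. The second CCNG1 probe was much dimmer, with a mean log2 intensity of 7.60 against 11.89, and read 0.40, 0.90, 0.52 and -0.07. Its mean of 0.44 ± 0.40 did not pass (adjusted p = 0.680 in limma), and its largest ratio was in pair 2, where the bright probe had its smallest. CCNG1 passed with each pair left out (0.71 to 1.02). The slides differed, with 1.20 on slide 205 and 0.55 on slide 206, where it missed the fold. Slide and dye orientation cannot be told apart.

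**Figure D2:**
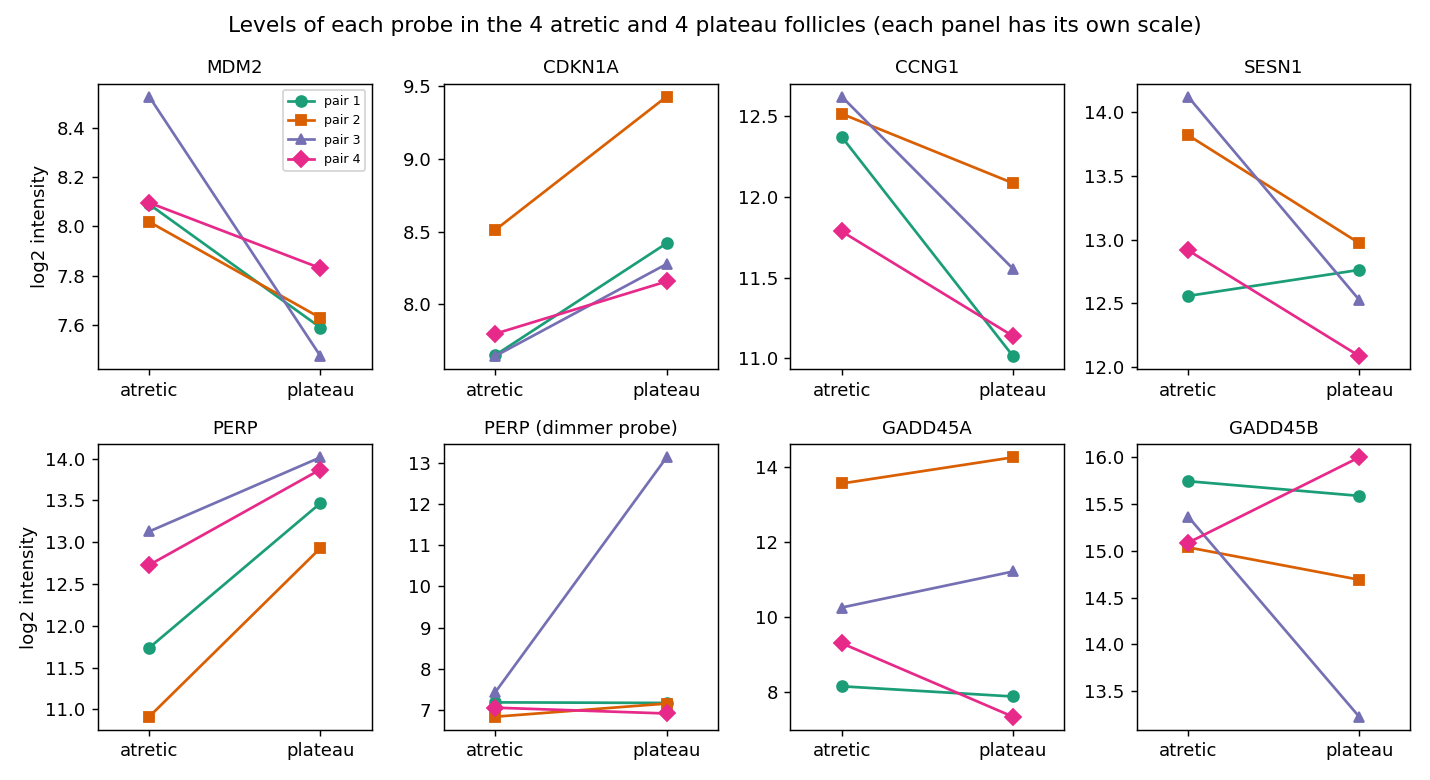
Log2 intensity (vertical axis, a separate scale in each panel) of 8 probes in the 4 atretic follicles on the left and the 4 plateau follicles on the right, with a line joining the follicles of a pair. MDM2 separates the groups (8.02 to 8.53 in atretic and 7.47 to 7.83 in plateau follicles), the lines of CDKN1A and PERP all run upward to the plateau side, and GADD45A differs more between pairs than between the follicles of a pair.

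The sestrins, which restrain mTORC1 and protect against oxidation, did not move together. SESN1 had levels of 12.56, 13.82, 14.12 and 12.92 in the atretic follicles, against 12.76, 12.97, 12.53 and 12.09 in the plateau follicles by its brightest probe. Pair 1 ran against the other 3. The ratios were -0.20, 0.85, 1.60 and 0.83, with a mean of 0.77 ± 0.74 (SD, n = 4), a 95% interval of 0.02 to 1.51 and a fold of 1.70 (adjusted p = 0.649 in limma). Of the 4 calls it was lost under the most alternatives, 8 in all. It was lost without pair 2 (0.74), pair 3 (0.49) or pair 4 (0.75), on slide 205 alone (0.41), with no background correction (0.76) and with loess alone (0.64), whereas without pair 1 the mean was 1.09. The 2 dimmer SESN1 probes read 0.24 ± 0.44 and 0.11 ± 0.11 and did not pass. The dimmest of them was above the negative controls on 3 atretic and 2 plateau channels of 8 each.

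SESN2 was measured by 2 dim probes. The brighter one had levels of 7.33, 7.61, 7.42 and 7.24 in the atretic follicles, against 7.36, 7.79, 7.46 and 7.43 in the plateau follicles. Its ratios of -0.03, -0.18, -0.04 and -0.19 gave a mean of -0.11 ± 0.09 (SD, n = 4; adjusted p = 0.871 in limma) with an interval of -0.38 to 0.16. The slides gave opposite signs, -0.36 on slide 205 and 0.14 on slide 206. The other probe read 0.65, -0.20, -0.06 and -0.31 (mean 0.02 ± 0.43). Both intervals leave room for changes of either sign, -0.46 to 0.50 for the dimmer probe.

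PERP, a membrane protein of desmosomes that p53 switches on in dying cells, had the largest fall, but it rests on 1 of its 2 probes. The bright probe had levels of 11.74, 10.91, 13.13 and 12.73 in the atretic follicles, against 13.47, 12.93, 14.02 and 13.87 in the plateau follicles. Each atretic follicle was lower than its partner, and the groups overlapped through the atretic follicle of pair 3. The ratios of -1.73, -2.02, -0.89 and -1.14 gave a mean of -1.44 ± 0.52 (SD, n = 4), a 95% interval of -2.00 to -0.89 and a 2.72-fold lower level in atretic follicles, with the same sign on all 8 arrays (adjusted p = 0.170 in limma). It passed with each pair left out (-1.63 to -1.25) and on each slide alone (-1.34 and -1.55).

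This pattern was shared with many other bright probes. A profile was built from 70 probes of mean log2 intensity 11 or more whose levels moved closely together over the 16 channel levels of the 8 arrays, which share hybridisations and are not independent. The PERP probe correlated with it at 0.99, as a description, and 73 other probes correlated above 0.95 with the PERP probe itself. The PERP probe was not left out when the profile was built, so its own levels may be part of the profile and of the 0.99. The mean of the profile was -1.93, -2.04, -0.99 and -1.33 in pairs 1 to 4, close to the PERP ratios in each pair. The plot of PERP beside the profile also has DUSP14, a phosphatase, and MAPK8, the kinase JNK1. These came from the p53 target and partner lists and showed the same course. Their bright probes read -2.13, -2.12, -0.97 and -1.34 for DUSP14 (correlation with the profile 0.80) and -1.89, -1.99, -0.67 and -1.14 for MAPK8 (0.89). The part of the shared profile in the PERP result was not tested.

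The dimmer PERP probe behaved differently. It stood at 7.19, 6.84, 7.44 and 7.06 in the atretic follicles, against 7.17, 7.16, 13.13 and 6.92 in the plateau follicles. All levels but 1 were near those of the negative controls, and the probe was above them on 2 atretic and 4 plateau channels of 8 each. The single bright reading was that of the plateau follicle of pair 3. The ratios were accordingly 0.01, -0.32, -5.69 and 0.14, the mean of -1.46 ± 2.82 did not pass (adjusted p = 0.823 in limma), and without pair 3 the mean was -0.05. The similar means of the 2 PERP probes, -1.44 and -1.46, thus come from different pairs.

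**Figure D3:**
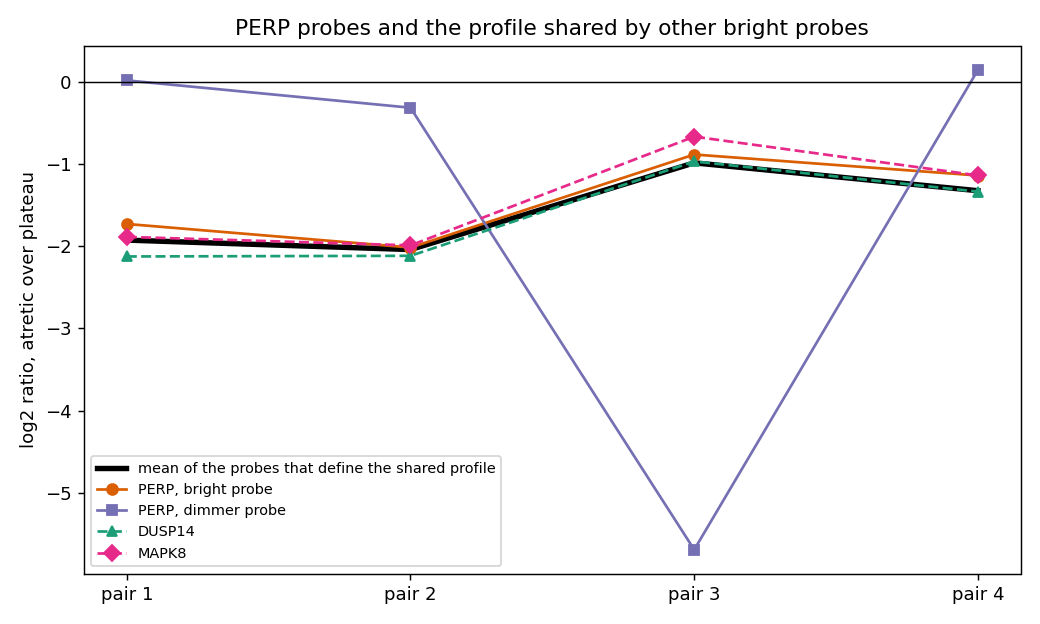
Log2 ratio of atretic over plateau (vertical axis) in pairs 1 to 4 (horizontal axis) for the 2 PERP probes, the bright probes of DUSP14 and MAPK8 and the mean of the shared profile (black line). The bright PERP probe (-1.73, -2.02, -0.89 and -1.14) runs with the profile, and the dimmer probe lies between -0.32 and 0.14 except in pair 3, at -5.69.

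The GADD45 genes, stress sensors that bind p21, PCNA and the kinase MAP3K4, had the largest SD over pairs among the 9 genes by their brightest probes. The bright probe of GADD45A had levels of 8.15, 13.57, 10.25 and 9.30 in the atretic follicles, against 7.87, 14.27, 11.21 and 7.33 in the plateau follicles. Both follicles of pair 2 were far above the rest, and the second GADD45A probe was also highest there, at 9.35 in the atretic and 9.71 in the plateau follicle of pair 2, where the other follicles of both groups lay between 7.45 and 7.86. Levels set across arrays rest on the normalization between arrays. The ratios were 0.27, -0.70, -0.96 and 1.96 with a mean of 0.14 ± 1.32 (SD, n = 4; adjusted p = 0.973 in limma). The dimmer probe read -0.02, -0.36, -0.33 and -0.09, with a mean of -0.20 ± 0.17.

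GADD45B had levels of 15.74, 15.04, 15.36 and 15.08 in the atretic follicles, against 15.58, 14.69, 13.23 and 15.99 in the plateau follicles, with 1 of 16 readings saturated. The plateau follicle of pair 3 was low. The ratios of 0.16, 0.34, 2.13 and -0.91 gave a mean of 0.43 ± 1.26 (SD, n = 4; adjusted p = 0.891 in limma), and the sign turned without pair 3 (-0.14). These 2 genes were the only ones of the 9 with an SD over pairs of 1 or more by their brightest probe, as 8.48% of all genes had. ZMAT3, a zinc finger protein that binds RNA, read -0.17, -0.00029, 0.24 and -0.05. The mean was 0.0052 ± 0.17 (SD, n = 4; adjusted p = 0.996 in limma) with an interval of -0.30 to 0.31. The ZMAT3 probe was dim, with a mean log2 intensity of 7.35, where the negative controls' mean plus 2 SD was 7.11 to 7.26. The narrow interval therefore cannot leave out a fold of 1.5 in the transcript of ZMAT3. Its levels were 7.31, 7.40, 7.42 and 7.27 in the atretic follicles, against 7.49, 7.40, 7.18 and 7.32 in the plateau follicles.

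Pair 3 gave the highest ratio of SESN1, MDM2, GADD45B, PERP and ZMAT3, which for PERP was the ratio nearest 0. Without it CCNG1, CDKN1A and PERP still passed (0.81, -0.68 and -1.63) and SESN1 did not. In the plot of all 15 probes against their intensity, the bright probes of CCNG1, SESN1 and SESN2 lay further from 0 than their dimmer ones, and those of GADD45A (0.14, against -0.20 for the dimmer) and PERP (-1.44, against -1.46) did not.

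**Figure D4:**
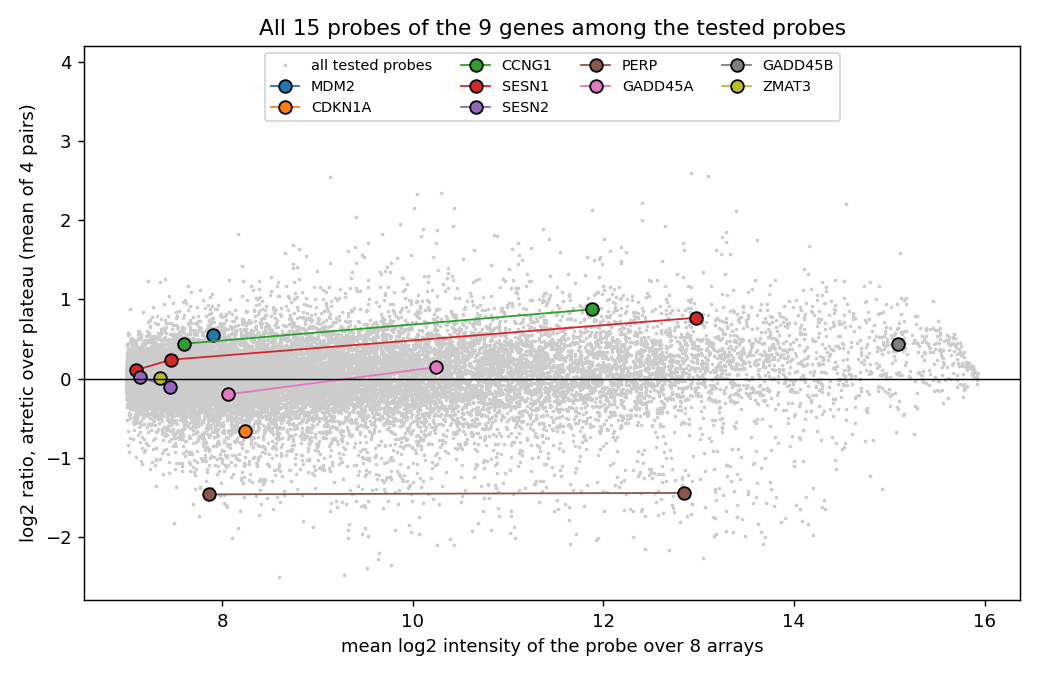
Mean log2 ratio of atretic over plateau in 4 pairs (vertical axis) against the mean log2 intensity of the probe over 8 arrays (horizontal axis), with all 33523 tested probes in grey and the 15 probes of the 9 genes in colour, joined by gene. The dimmer CCNG1 probe lies at 0.44 below the bright one at 0.87, and the 3 SESN1 probes at 0.11, 0.24 and 0.77 in the order of their intensity.

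The paralogues of these genes did not pass. None of 6 rose or fell (0 of 6, median -0.02). MDM4, the partner of MDM2 that blocks p53 without ubiquitin ligase activity of its own, read 0.10, -0.60, 0.82 and -0.38 (mean -0.01 ± 0.63). CDKN1B, p27, read -0.24, -0.54, 0.56 and 0.10 (-0.03 ± 0.47) and CDKN1C, p57, 0.45, -1.13, -0.08 and -0.09 (-0.21 ± 0.66). Neither had the same sign in every pair, unlike CDKN1A. CCNG2 read -0.10, -0.06, 1.59 and -0.76 (0.17 ± 1.00), SESN3 -0.14, 0.04, 0.34 and 0.40 (0.16 ± 0.26) and GADD45G -1.09, 0.34, 2.59 and -2.31 (-0.12 ± 2.10). GADD45G, like GADD45B, was highest in pair 3 and lowest in pair 4.

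Around p53, 3 of 22 regulators passed the threshold, where 5.75% of all genes did. RPL11 and RPL23, ribosomal proteins that bind MDM2 and block its action on p53, rose by 0.77 ± 0.72 (0.62, -0.02, 1.74 and 0.73 in pairs 1 to 4) and 0.71 ± 0.52 (0.92, -0.04, 0.79 and 1.16). Another probe of RPL11 read 0.40. Both calls were lost without pair 1, pair 3 or pair 4 (0.82, 0.45 and 0.78 for RPL11, 0.64, 0.68 and 0.55 for RPL23), RPL11 also on slide 205 alone (0.75) and with loess alone or quantiles of the mean intensity (0.63 each), and RPL23 on slide 206 alone (0.49). CHEK1, a checkpoint kinase that acts on p53 and on replication stress, fell with ratios of -0.54, -0.54, -1.67 and -1.54 and a mean of -1.07 ± 0.62. The median of the list was 0.14. Of the rest, RPL5, which binds MDM2 with RPL11, read 0.63 ± 0.67 and did not pass (adjusted p = 0.689 in limma).

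Among other p53 targets of arrest, repair and metabolism, 0 of 33 rose and 2 fell, with a median of -0.0045, a share near the 5.75% of all genes that passed. They were DUSP14, described above, and EPHA2, an ephrin receptor (-0.43, -0.54, -1.06 and -0.39, mean -0.60 ± 0.31). The EPHA2 call was lost with plain background subtraction (-0.55), with no background correction (-0.52), in the authors' table of ratios (-0.55), on slide 206 alone (-0.54) and without pair 3 (-0.45). The list of p53 targets of cell death and autophagy held 23 genes, of which 15 had a probe by symbol. BBC3, PMAIP1, TNFRSF10B and AEN were among those without one and were not measured. Of the 15, 0 rose and 1 fell, with a median of -0.05, again near the 5.75% of all genes. It was EI24, a protein of the endoplasmic reticulum (-1.17, -0.40, -0.86 and -0.10, mean -0.63 ± 0.47). Its call was lost without pair 1 (-0.45), without pair 3 (-0.56), on slide 206 alone (-0.58) and with an intensity trend and robust variance (-0.63). BAX, the pore-forming effector of mitochondrial cell death, read 0.10 ± 0.17 and FAS, a death receptor, 0.02 ± 0.62. Neither passed, and the interval of BAX ran from -0.21 to 0.40. APAF1 had the highest mean of the list, 0.66 ± 0.98, and did not pass either.

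Of 23 partners of p21, the GADD45 proteins and the sestrins, 0 rose and 2 fell (median -0.13), where 5.75% of all genes passed and 2.91% as lower. They were MAPK8, with the profile described above and a dim second probe at -0.03, and PCNA, the sliding clamp of DNA replication that p21 and GADD45 bind. PCNA read -0.73, -0.43, -1.86 and -0.67, with a mean of -0.92 ± 0.64, and its other probes read -0.92, -0.76 and -0.38. A second probe of PRKAA1, a catalytic subunit of the kinase AMPK, passed as higher (0.09, 1.67, 1.17 and 1.24), while the brightest PRKAA1 probe read 0.02.

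The list built around repression by p53 through p21 and the DREAM complex had calls in 1 direction. It held 13 tested genes of mitosis and replication, as repressed genes, and 8 tested subunits of the complex and its partners. Of these 21, 9 were lower and 0 higher in atretic follicles, with a median of -0.50, where 2.91% of all genes were lower. All 9 were among the 13. The 9 were CCNB1, BUB1, CCNB2, CCNA2, AURKA, BIRC5, CDC20, CDK1 and CDC25C, all genes of S phase, G2 or mitosis. Cells in S phase and G2 had counted away from atresia when the follicles were grouped. The part of this grouping rule in the calls was not tested. CCNB1, cyclin B1, read -1.72, -0.80, -3.32 and -2.04 (mean -1.97 ± 1.04) and BUB1, a spindle checkpoint kinase, -2.16, -0.50, -2.77 and -2.41 (-1.96 ± 1.01). CCNB2 had a mean of -1.57 ± 1.11 and CCNA2, cyclin A2, of -1.48 ± 1.39, but another CCNA2 probe read 0.03. CCNA2 read -3.44 in pair 3 and -0.82 as the mean without it, and its call was lost without pair 4 (-1.48) and with no background correction (-1.28), as that of CCNB2 was without pair 4 (-1.42). Pair 2 had the ratio nearest 0 in CCNB1, BUB1 and CCNB2. The 8 tested subunits of the DREAM complex and its partners, such as LIN54, RBL2 and E2F4, had 0 calls and lay between -0.19 and 0.29. CDKN1A and the 9 called genes of this list were thus both lower in atretic follicles. The list was put together with the fall of mitotic genes in these data already known, and 5 of 21 were lower without pair 4.

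**Figure D5:**
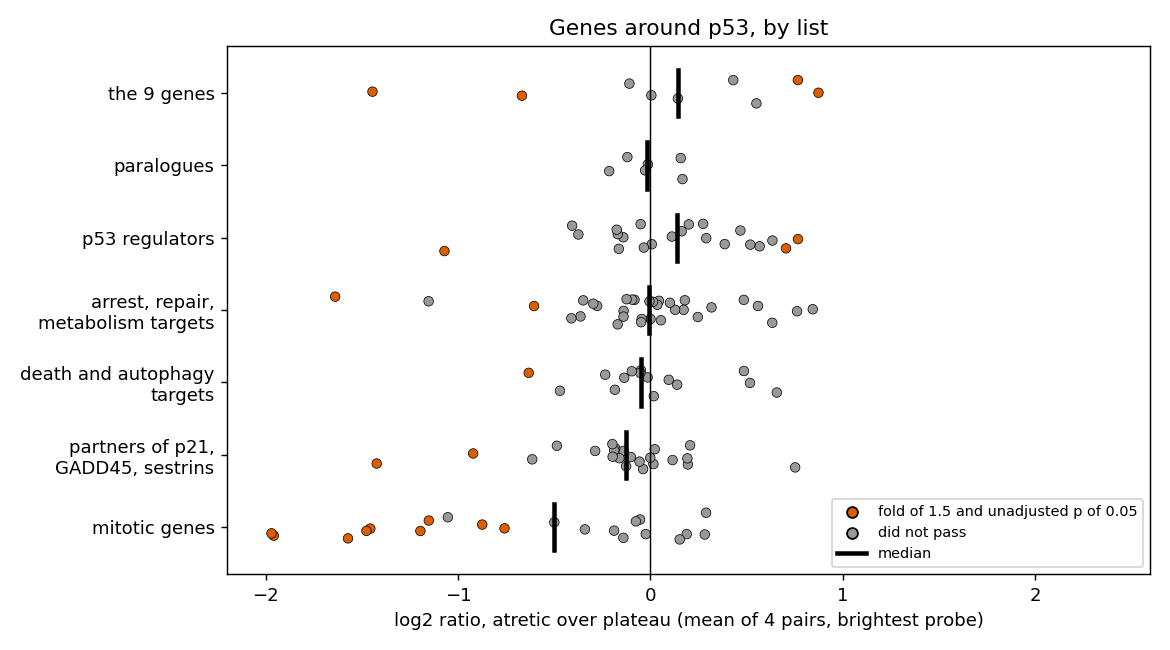
Mean log2 ratio of atretic over plateau over 4 pairs (horizontal axis) of each gene by its brightest probe in 7 lists, with genes past a fold of 1.5 and an unadjusted p of 0.05 in orange, the others in grey and the median of each list as a black bar. The 9 genes have a median of 0.14 with calls on both sides. The list labelled mitotic genes, which includes 8 DREAM subunits and partners, has a median of -0.50 with 9 of 21 called lower.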

How the data were processed

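Amplified RNA of granulosa cells had been hybridised to EmbryoGENE two-colour arrays. The authors deposited a median intensity and local background per spot and channel, from images in which spots under debris were marked. They also deposited log2 ratios of Cy5 over Cy3 (background subtraction, loess, quantile), which correlated at 0.9997 to 0.9999 with the same steps applied to the intensities and served as an alternative.

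Intensities were corrected by normexp (offset 50), normalized by loess within arrays (span 0.3, marked spots, 7 to 35 per array, and controls at weight 0) and by quantiles between arrays, and turned to atretic minus plateau. Levels are on that quantile scale, so that their difference is the ratio. Arrays of equal Area number were averaged, since their ratios matched between slides once each probe's mean over its slide had been subtracted. The correlations were then 0.76 to 0.87 for equal numbers and -0.49 to -0.03 for unequal numbers. The subtraction itself pulls unequal numbers toward negative values, so their sign is not separate evidence for the pairing. This pairing comes from these data and the dye-swap design. The 33523 probes whose mean log2 intensity reached 7 entered limma (lmFit, eBayes), with p-values adjusted over all of them (Benjamini-Hochberg).

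Of 43794 gene probes, 21790 had 1 symbol, 0 several and 22004 none in the platform annotation, and 1524 probes had theirs updated from RefSeq gene records of ARS-UCD2.0. A channel counted as above the negative controls beyond their mean plus 2 SD. The 9 genes and the lists were chosen with earlier results of these data known. Named genes were all probes of the 9, their paralogues, up to 4 called genes of largest change per other list, and CYP17A1, CYP19A1 and FOXL2. RPL5, BAX, FAS, APAF1, PRKAA1, NR5A2, LAPTM5, STAR, LHCGR and INSL3, the other mitotic genes that passed and the DREAM subunits were named after their values were seen.

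Alternatives changed background correction, normalization, filters, dye-swap handling, slide, source, variance model, probe of a gene, fold and each pair left out. Added after seeing the data were quantiles of the mean intensity only, 8 unnamed spots kept and shared-profile probes left out. The fit was tested on simulated data. The work used limma 3.58.1 with statmod 1.5.0 in R 4.3.3, and figures were drawn by matplotlib 3.10.9 in Python 3.11.15.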

Additional observations from a re-analysis of the deposited data

Results flagged for a closer look

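The dimmer of the PERP probes had a log2 ratio of -5.689 in pair 3, against 0.01, -0.32 and 0.14 in pairs 1, 2 and 4, and its gap to the nearest pair took 0.921 of the range of the 4 values. The reading came from the plateau follicle of that pair, with a level of 13.13, and was seen on both slides. The bound that marks such a value is passed by chance in about 1 in 20 groups of 4.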

How the results depend on the processing

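With 4 pairs, 0 probes passed an adjusted p of 0.05 over all probes. The 1393 probes past the fold of 1.5 and unadjusted p became 2712 on slide 205 alone, 2663 on slide 206 alone, 2225 with 8 arrays taken as independent and 501 at a fold of 2, and 1287 to 1811 with a pair left out. A fit of the 8 arrays in which the pair was a replicate block passed 2216, 549 at an adjusted p of 0.05, and 2200 and 436 with a dye term added. The bright PERP probe was then among the adjusted calls, and with the dye term CCNG1 too, though a dye swap repeats the same RNA. The count of the 9 genes, 4, was 2 with no background correction, 2 on slide 206 alone, 1 at a fold of 2 and 3 to 4 with a pair left out.

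The median of the 9 genes, 0.14, was 0.0052 with the mean of all probes and -0.074 to 0.42 with a pair left out, and that of the death and autophagy targets was 0.025 on slide 206 alone. Some values changed sign. CYP17A1 read 0.010 with plain subtraction, 0.025 with no background correction, 0.17 on slide 206 and 0.010 in the authors' table. ZMAT3 read -0.015 with no background correction, -0.0015 with median centring and -0.10 on slide 205, MDM4 0.019 and 0.17 in the first and last of these, and GADD45G 0.018 on slide 205. The dimmer SESN2 probe read -0.013 with loess alone and with quantiles of the mean intensity, and -0.021 on slide 205. On slide 206 SESN2 read 0.14, the dimmer GADD45A probe 0.10, FOXL2 -0.072 and CDKN1B 0.093, and GADD45A -0.029 as the mean of its probes. With a pair left out, the ranges that crossed 0 were -0.14 to 0.88 for GADD45B, -0.46 to 0.51 for GADD45A, -0.074 to 0.064 for ZMAT3, -0.19 to 0.13 for the dimmer SESN2 probe, -0.072 to 0.49 for FOXL2, -0.22 to 0.14 for CDKN1B, -0.43 to 0.092 for CDKN1C, -0.31 to 0.48 for CCNG2, -1.02 to 0.61 for GADD45G, -0.29 to 0.18 for MDM4 and -0.60 to 0.29 for CYP17A1. The causes were not tested. MDM2, CCNG1, SESN1, CDKN1A and the bright PERP probe kept their signs under every alternative that gave them a value.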
